A study of Mus musculus with 26 samples.

Results

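Interleukins are secreted proteins through which immune, epithelial and stromal cells signal to one another, and their receptors are membrane proteins that usually work as pairs of chains. The family was taken as every gene whose symbol starts with Il followed by a number, which gave 85 of the 23337 genes counted in the male mouse reproductive tract. They comprised 39 ligands, 39 receptor chains, 6 antagonists or decoy receptors and 1 enzyme. RNA-seq had been made from the initial segment (IS) of the epididymis, the caput epididymidis and the testis of wild-type (WT) and ArKI mice, a SUMOylation-deficient knock-in line. Each epididymal group held 5 samples and each testis group 3, 26 samples in all.

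All animals were 3 months old and of the same background, labelled C57Bl/6N; 129 hybrid. The ArKI mutation is in the germline and so present in every cell, and no cell type is targeted by itself. Each library came from a whole piece of tissue, and fewer cells of a type and less RNA per cell therefore cannot be told apart. Per the study's methods the IS and caput came from 5 WT and 5 ArKI mice and the testes from 3 of each. The segments therefore share animals, and the labels do not say which samples came from the same mouse, so tests between the segments treat samples of shared animals as separate. The epididymal libraries shared 1 sequencing run and the testis libraries another, so run and tissue cannot be told apart where the testis is set against the epididymis.

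Total counts ranged from 4125768 to 11913469 per epididymal library, with caput ArKI replicate 2 the shallowest, and from 14077013 to 21376604 per testis library. Marker genes of the epididymal epithelium summed to between 43000 and 73800 counts per 1000000 (CPM) in every epididymal library against 297 to 339 in the testis, and germ cell markers summed to 13600 to 17900 CPM in the testis.

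As background, interleukin receptors fall into families by the chain they share. Receptors of the gp130 family pair with Il6st (gp130) or its relative Osmr and signal through JAK kinases and STAT3. Receptors of the common gamma chain family use Il2rg, and those of the IL-10 family use Il10rb or Il20rb, both signalling through JAK and STAT proteins, whereas the IL-1 and IL-17 receptors signal through adaptors to NF-κB. In the epididymis a resident network of macrophages and other mononuclear phagocytes lies at the base of the epithelium, and in the testis macrophages lie in the interstitium.

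Much of the family had few or no counts. Of the 85 genes, 5 had no count in any of the 26 samples and 25 had at most 3 counts in every sample. After the filter on low counts 34 were tested in the IS, 33 in the caput and 33 in the testis, 46 in at least 1 tissue and 22 in all 3. Ligands made up 8 of those tested in the IS, 7 in the caput and 10 in the testis, and receptor chains 24, 24 and 22. A gene that passed the filter through the group in which it is high had to differ, so the counts below describe the tested genes and not the whole family.

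The WT tissues differed in which members stood highest. Levels are compared between genes as CPM per kilobase of exon. In the WT IS the order was *Il10rb*, the second chain of the IL-10 and IL-22 receptors, at 51.0 ± 1.89 CPM per kb (SD, n = 5), *Il4ra*, the receptor chain of IL-4 and IL-13, at 48.3 ± 1.19, and *Il34*, a ligand of the macrophage receptor Csf1r, at 44.1 ± 3.75. Each overlapped the next in this order, *Il10rb* and *Il34* did not overlap each other, and the next members, *Il13ra1* at 13.1 and *Il20rb* at 10.6, lay below them. In the WT caput *Il20rb* (19.2), *Il10rb* (16.8), *Il4ra* (15.9) and *Il17rb* (15.2 CPM per kb) each overlapped the next in the order, and *Il13ra1* followed at 11.4. In the WT testis the order was *Il31* at 33.9 ± 3.07 (n = 3), *Il3ra* at 16.9 ± 2.08, *Il17d* at 7.74, *Il10rb* at 6.02 and *Il11* at 4.16 CPM per kb, with no overlap between neighbours. In GENCODE vM21 30.8% of the exon length of *Il10rb* is shared with an overlapping gene on the same strand, *Gm21970*, so that its reads may be split or left out.

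**Figure D1:**
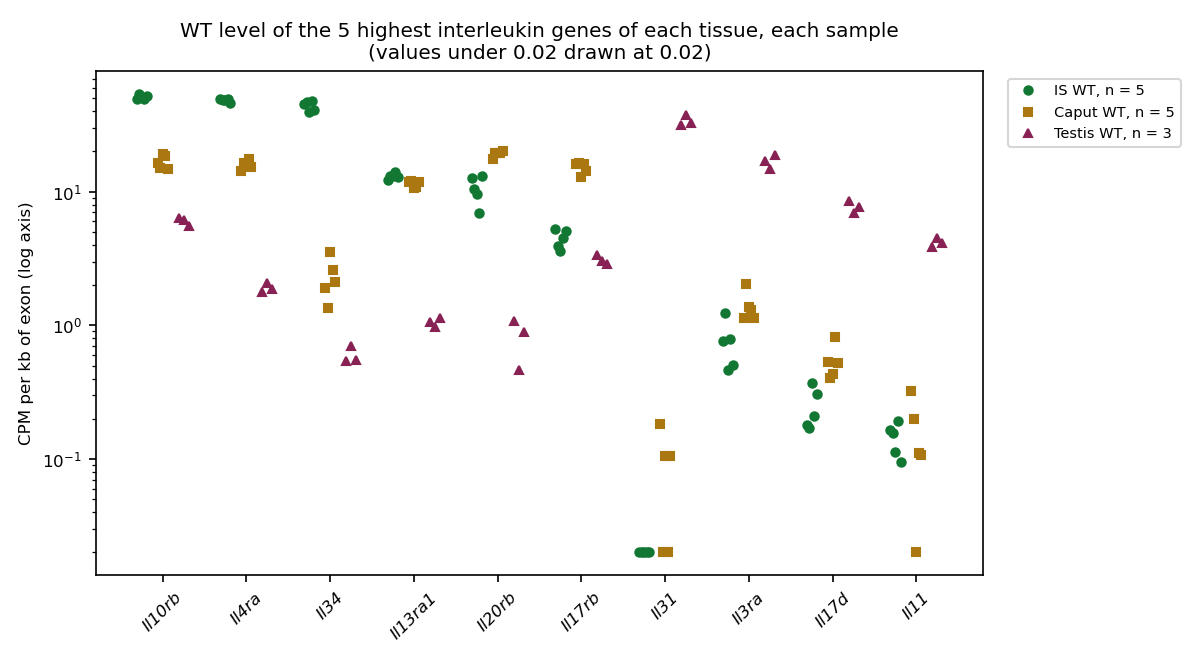
Levels of the highest interleukin genes in the WT tissues, in CPM per kb of exon on a log axis, with 1 point per sample and values under 0.02 drawn at 0.02. *Il10rb*, *Il4ra* and *Il34* lie together at the top of the IS at means of 51.0, 48.3 and 44.1, *Il20rb* leads the caput at 19.2 and *Il31* the testis at 33.9.

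Between the segments of the WT epididymis 26 of 33 tested members differed at an adjusted p below 0.05, where 71.2% of all genes tested did. Of these, 12 were higher in the IS (35.8% of all genes) and 14 higher in the caput (35.4%). *Il24* had 11 to 21 counts a sample in the IS and at most 1 in the caput (edgeR adjusted p = 3.7e-08). *Il34* was 80.5 ± 6.85 CPM in the IS and 4.21 ± 1.51 in the caput (log2 difference IS minus caput 4.26, edgeR adjusted p = 1e-11). *Il10rb* and *Il4ra* were both 1.60 higher in the IS on the log2 scale, and *Il22ra1* 1.33, *Il10ra* 1.03 and *Il17ra* 1.00 higher. In the other direction the differences were −2.25 for *Il6ra*, −1.98 for *Il13ra2*, a decoy receptor of IL-13, −1.76 for *Il17rb*, −1.57 for *Il15* and −1.21 for *Il1r1*. The samples of the 2 segments did not overlap for 18 of the 33 members, against 57.7% of all genes tested, and 12 members passed a false discovery rate of 0.01 with a 2-fold limit, against 20.8%.

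In the WT testis against the mean of the WT IS and caput, 37 of 39 tested members differed, where 92.9% of all genes did. Of these, 31 were lower in the testis (43.4% of all genes) and 6 higher (49.5%), and the median log2 difference was −1.62 over the members and 0.17 over all genes. Those that were higher were *Il31* (10.06), *Il11* (4.85), *Il17d* (4.46), *Il3ra* (4.14), *Il17rd* (1.27) and *Il18* (0.69). Of these, *Il31*, *Il11* and *Il17d* were below the filter in both segments and passed it through the testis, so they had to differ. The value of *Il31* is a fitted one, with no count in the WT IS and at most 2 in any WT caput sample. The furthest below were *Il13ra2* (−5.42), *Il1rl2* (−4.10), *Il20rb* (−4.01), *Il34* (−3.97) and *Il4ra* (−3.77). The scaling moved this comparison, with the median of all genes at 0.29 under RLE factors and −0.23 with library size only, and 30 and 33 members lower under these.

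**Figure D2:**
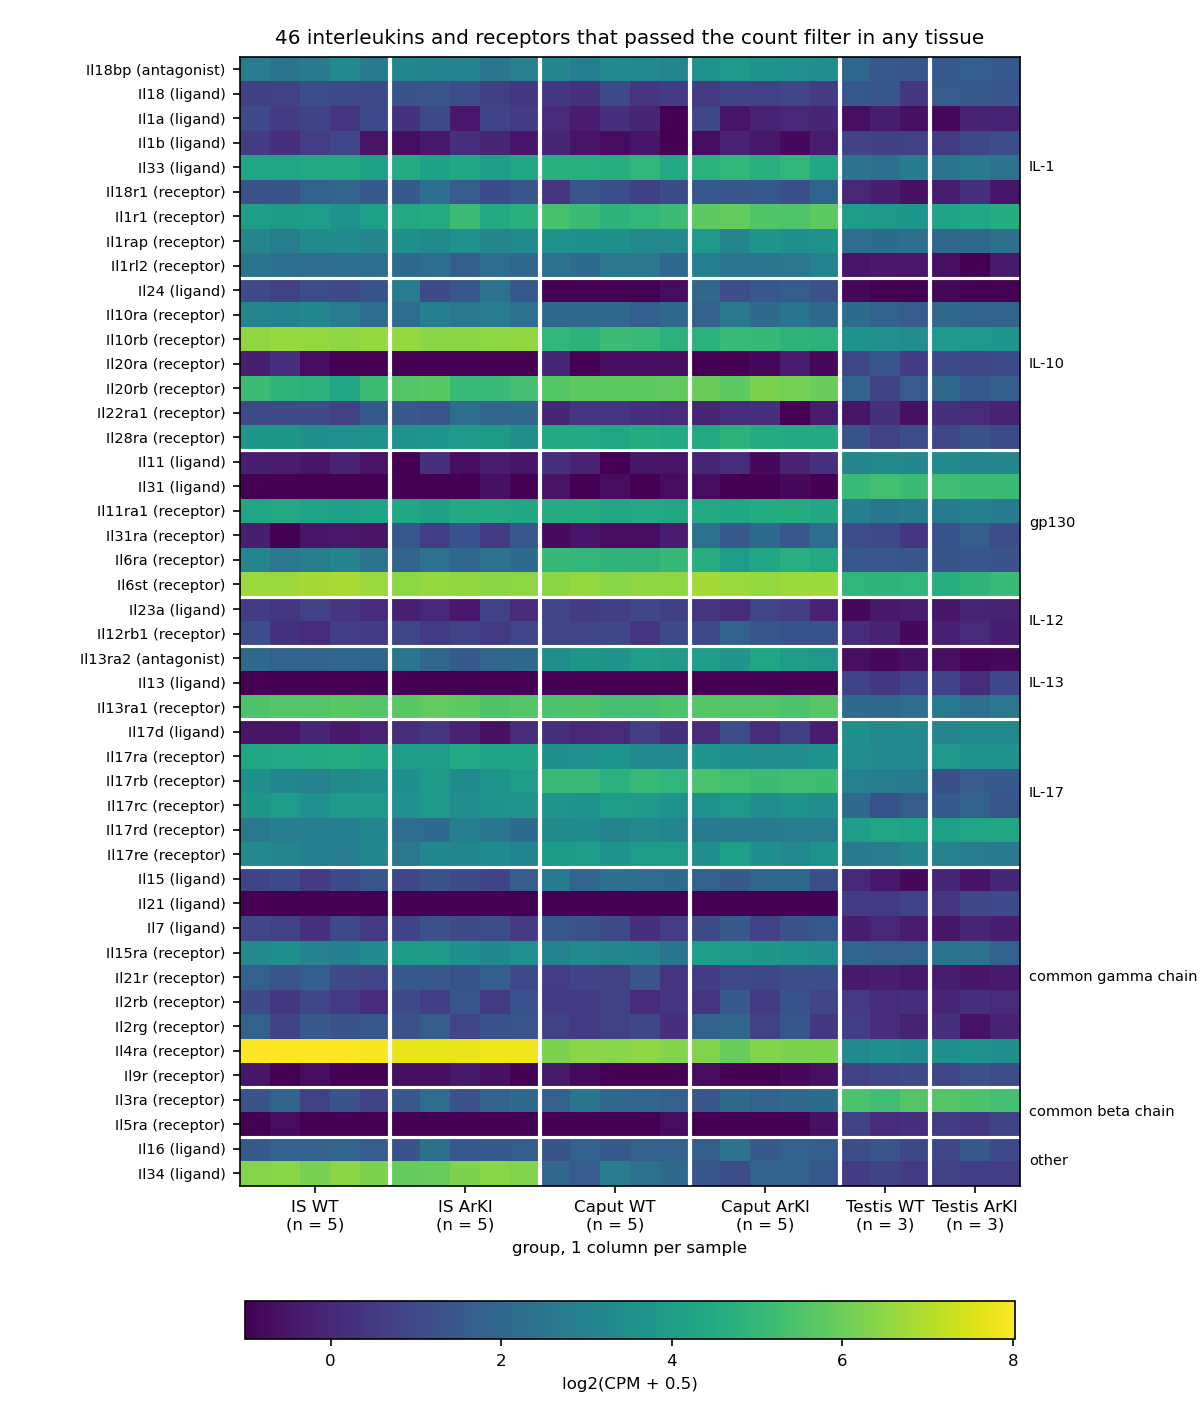
Levels of the interleukin genes in all 26 samples as log2(CPM + 0.5), with genes in rows by family and samples in columns by tissue and genotype. *Il31* stands out in the testis, *Il34* and *Il4ra* in the IS, and *Il24* and *Il31ra* are higher in the ArKI than in the WT caput, with *Il24* also present in both IS groups.

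The caput held the members that differed most between the genotypes. Compared with WT, 13 of 33 tested members changed in the ArKI caput at an adjusted p below 0.05, against 27.7% of all genes tested. Of these, 9 were higher (13.7% of all genes) and 4 lower (14%). With all 4 epididymal groups in one fit the split was 7 higher and 6 lower, as *Il17rb* and *Il20rb* lost their calls and *Il17re* and *Il4ra*, both lower, gained them. The median log2 fold change was 0.17 over the members and 0.0017 over all genes. With the false discovery and 2-fold limits the study used, 2 members remained, *Il24* and *Il31ra*, where 4.98% of all genes did. Both had at most 3 counts in every WT caput sample and passed the filter only through the ArKI group. Their calls and adjusted p values were therefore bound to follow and add no support of their own. The WT and ArKI samples did not overlap for 8 of the 33 members, against 20.3% of all genes.

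Receptors made of Il20rb with Il20ra or Il22ra1 bind the ligands Il24 and Il20, which belong to the IL-10 family. *Il24* had 0, 0, 0, 0 and 1 counts in the 5 WT caput samples and 31, 8, 26, 31 and 25 in the ArKI samples. Every ArKI sample lay above every WT sample, and the lowest ArKI value came from the shallowest library. The summed counts, scaled to library size, were in a ratio of 113, with an exact 95% interval of 20 to 4520 that covers counting error only (edgeR adjusted p = 3.2e-07). Mean *Il24* was 2.40 ± 0.714 CPM in the ArKI caput (SD, n = 5), compared with 1.65 ± 0.314 in the WT IS, where each sample had 11 to 21 counts.

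*Il20* had no count in the 5 WT caput samples and 6, 6, 2, 4 and 6 in the ArKI samples. With 3 counts over the WT group taken as the floor, the scaled ArKI sum was 7.50-fold higher, a value that leaves out counting error. It fell below the filter on low counts. Without a filter it was called (edgeR adjusted p = 0.00082). In the IS *Il20* had 3, 2, 3, 3 and 2 counts in WT and 1, 1, 1, 1 and 3 in ArKI, so it did not rise there. The RefSeq promoter of *Il20* (GRCm38.p6, chr1:130911247-130911546, minus strand, 250 bases before to 50 after the start) is shown because this neighbour of *Il24* also appeared in the ArKI caput. The base at the start that RefSeq's promoter table uses is in capitals here and in the sequences further on:
Il20: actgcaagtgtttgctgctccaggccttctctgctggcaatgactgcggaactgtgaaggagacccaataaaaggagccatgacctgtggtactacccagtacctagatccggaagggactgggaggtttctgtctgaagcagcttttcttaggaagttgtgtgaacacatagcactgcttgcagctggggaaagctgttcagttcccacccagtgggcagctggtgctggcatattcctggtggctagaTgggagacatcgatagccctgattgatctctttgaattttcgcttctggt

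Both ligand genes lie within a cluster on chromosome 1, *Il20* 19.6 kb and *Il19* 45.2 kb from *Il24*. *Il19*, another ligand of Il20rb, had at most 3 counts in any caput sample. On the other side, 1.28 kb from *Il24* and on the opposite strand, *Faim3*, a receptor for the IgM constant region, had 6, 5, 3, 2 and 2 counts in the WT caput and 65, 42, 63, 80 and 65 in the ArKI caput (log2 fold change 4.04 ± 0.28 SE, edgeR adjusted p = 1.7e-08). In the IS *Faim3* was 10.5 against 9.34 CPM (edgeR adjusted p = 0.37) and in the testis 4.18 against 5.19 CPM (edgeR adjusted p = 0.4).

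The receptor chains for these ligands were unequally present. *Il20rb* was 49.2, 54.2, 54.8, 54.4 and 56.1 CPM in the WT caput and 63.4, 53.4, 75.0, 69.3 and 61.0 in the ArKI caput (log2 fold change 0.26 ± 0.069 SE, edgeR adjusted p = 0.009). ArKI replicate 2 lay within the WT range and the other ArKI samples above it. *Il20ra* had at most 5 counts and *Il22ra1* at most 8 in any caput sample, and neither was tested there.

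Il31ra is a gp130-family chain that binds Il31 together with Osmr. *Il31ra* had 1, 2, 1, 1 and 3 counts in the WT caput and 42, 11, 47, 27 and 54 in the ArKI caput. The groups did not overlap, and the scaled sums were in a ratio of 21.2 (exact 95% interval 10.5 to 49.9, edgeR adjusted p = 3.2e-07). The mean of 3.53 ± 1.18 CPM in the ArKI caput compares with 1.36 ± 0.458 CPM in the WT testis. The promoter of *Il31ra* (GRCm38.p6, chr13:112580613-112580912, minus strand) is printed because the transcript rose from at most 3 counts a sample in the WT epididymis. Its start in that table lies 70 bases inside the outermost end of the gene:
Il31ra: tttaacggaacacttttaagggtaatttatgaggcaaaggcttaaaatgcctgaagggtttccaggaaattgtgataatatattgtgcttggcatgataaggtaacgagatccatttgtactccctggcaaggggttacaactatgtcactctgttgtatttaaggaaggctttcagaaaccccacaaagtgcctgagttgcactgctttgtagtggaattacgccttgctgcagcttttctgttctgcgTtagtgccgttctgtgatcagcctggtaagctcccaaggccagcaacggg

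The partner chain *Osmr* ranged from 14.7 to 21.3 CPM in the WT caput and from 31.5 to 42.9 in the ArKI caput (log2 fold change 1.05 ± 0.11 SE, edgeR adjusted p = 1.9e-06). The ligand gene *Il31* had at most 2 counts in any epididymal sample of either genotype. The gene next to *Il31ra* at 15.1 kb is *Il6st*, and at 17.6 kb lies *Ddx4*, a germ cell gene, which was lower in the ArKI caput (log2 fold change −1.56, edgeR adjusted p = 0.00056).

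The other gp130 members moved in both directions. *Il6ra*, the chain that binds IL-6 and signals through gp130, was 32.4, 30.6, 28.7, 28.8 and 32.7 CPM in the WT caput and 23.9, 15.4, 20, 25.2 and 21.6 in the ArKI caput, a fall with no overlap (log2 fold change −0.52 ± 0.093 SE, edgeR adjusted p = 0.00044). *Il6st* itself was 87.3, 96.4, 85.9, 91.2 and 92.3 CPM in WT and 110, 102, 96.8, 103 and 103 in ArKI (0.17 ± 0.049, edgeR adjusted p = 0.013). Its highest WT sample and its lowest ArKI sample nearly met, and they overlapped under the scaling of the caput samples alone. *Il6* and *Il27* had at most 3 counts in any sample, and *Il11* at most 9 in the caput. *Il11ra1*, the IL-11 receptor chain, had a log2 fold change of 0.0041 (edgeR adjusted p = 0.98).

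Among the IL-1 family, *Il1r1*, the signalling receptor of IL-1α and IL-1β, was 41.9, 34.6, 28.3, 30.7 and 35.4 CPM in the WT caput and 53.2, 59.2, 47.0, 45.6 and 54.0 in the ArKI caput (log2 fold change 0.57 ± 0.10 SE, edgeR adjusted p = 0.00095). *Il18bp*, a secreted antagonist of IL-18, was 8.59, 6.93, 9.37, 8.89 and 8.41 CPM in WT and 11.8, 14.1, 12.2, 11.2 and 10.3 in ArKI (0.47 ± 0.12, edgeR adjusted p = 0.006). In both genes all ArKI samples exceeded all WT samples. *Il18r1*, the IL-18 receptor, had a log2 fold change of 0.67 (edgeR adjusted p = 0.07), and the accessory chain *Il1rap* one of 0.16 (edgeR adjusted p = 0.37). The ligands were low, with at most 12 counts of *Il1a*, 5 of *Il1b* and 17 of *Il18* in any caput sample, as were the antagonist *Il1rn* and the decoy *Il1r2* with at most 3. *Il33*, an alarmin of barrier cells, was 25.1 CPM in WT and 26.5 in ArKI (edgeR adjusted p = 0.84).

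IL-15 is presented to its target cells by Il15ra on the producing cell and signals through Il2rb and Il2rg. *Il15ra* was 7.52, 9.0, 8.38, 7.85 and 5.20 CPM in the WT caput and 16.0, 14.1, 13.3, 11.8 and 10.6 in the ArKI caput, with no overlap (log2 fold change 0.77 ± 0.15 SE, edgeR adjusted p = 0.00075). *Il15* was 5.98, 3.31, 4.52, 4.15 and 4.10 CPM in WT and 2.98, 2.35, 3.66, 3.54 and 1.74 in ArKI (−0.63 ± 0.22, edgeR adjusted p = 0.044). Its groups overlapped, with 2 ArKI samples above the lowest WT sample. *Il2rg* had a log2 fold change of 0.82 (edgeR adjusted p = 0.11), and *Il2rb* had 5 to 23 counts a sample and was not tested.

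In the IL-17 family, *Il17rb*, the receptor of IL-25 and IL-17B, was 34.0, 34.4, 26.9, 33.8 and 29.9 CPM in the WT caput and 42.3, 38.7, 36.1, 37.2 and 36.5 in the ArKI caput (log2 fold change 0.25 ± 0.076 SE, edgeR adjusted p = 0.022). *Il17rd*, known also as an inhibitor of fibroblast growth factor signalling, was 9.26, 10, 7.83, 8.89 and 8.41 CPM in WT and 6.07, 5.77, 5.87, 6.51 and 6.50 in ArKI (−0.54 ± 0.11, edgeR adjusted p = 0.0017). Neither gene overlapped between genotypes. The shared chain *Il17ra* was 10.8 CPM in WT and 11.1 in ArKI, and *Il17re* had a log2 fold change of −0.35 (edgeR adjusted p = 0.054). The ligands *Il25*, *Il17a*, *Il17b* and *Il17f* had at most 5 counts in any caput sample.

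Among the remaining members, *Il34* was 3.47, 2.48, 6.50, 4.73 and 3.88 CPM in the WT caput and 2.18, 1.71, 3.06, 3.05 and 2.30 in the ArKI caput (log2 fold change −0.73 ± 0.24 SE, edgeR adjusted p = 0.033), with 2 ArKI samples above the lowest WT sample. Markers that, like *Il34*, are high in the IS also varied in the caput: *Lcn8* was 491 ± 516 CPM in the WT caput and 132 ± 138 in the ArKI caput (edgeR adjusted p = 0.24), against 12900 in the WT IS, and *Cst8* was 146 ± 142 and 35.2 ± 32.1 (edgeR adjusted p = 0.17), against 3190. In the other direction went *Crisp1*, at 360 CPM in the WT caput and 903 in the ArKI caput (edgeR adjusted p = 0.43), against 1980 in the WT IS. *Ros1* rose too, from 281 to 362 (edgeR adjusted p = 0.00011), against 558, and *Adam28* was 110 and 83.4 (edgeR adjusted p = 0.81), against 5020. The part of these markers in the fall of *Il34* was not tested. *Il13ra1*, which pairs with Il4ra to bind IL-4 and IL-13, was 43.8, 44.6, 39.3, 40.4 and 43.7 CPM in WT and 49.0, 47.9, 48.8, 44.2 and 50.6 in ArKI (0.17 ± 0.057, edgeR adjusted p = 0.034). Of the 13 calls in the caput, 4 were lost when a single library was left out. *Il13ra1* lost its call (adjusted p 0.055 to 0.093) without WT 3 or 4 or ArKI 1, 3 or 5, *Il15* (0.058 to 0.14) without WT 1, 3, 4 or 5 or ArKI 1, 2 or 5, *Il17rb* (0.059 to 0.068) without WT 3 or 5 or ArKI 1, and *Il34* (0.07 to 0.11) without WT 3 or 4 or ArKI 1 or 5.

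**Figure D3:**
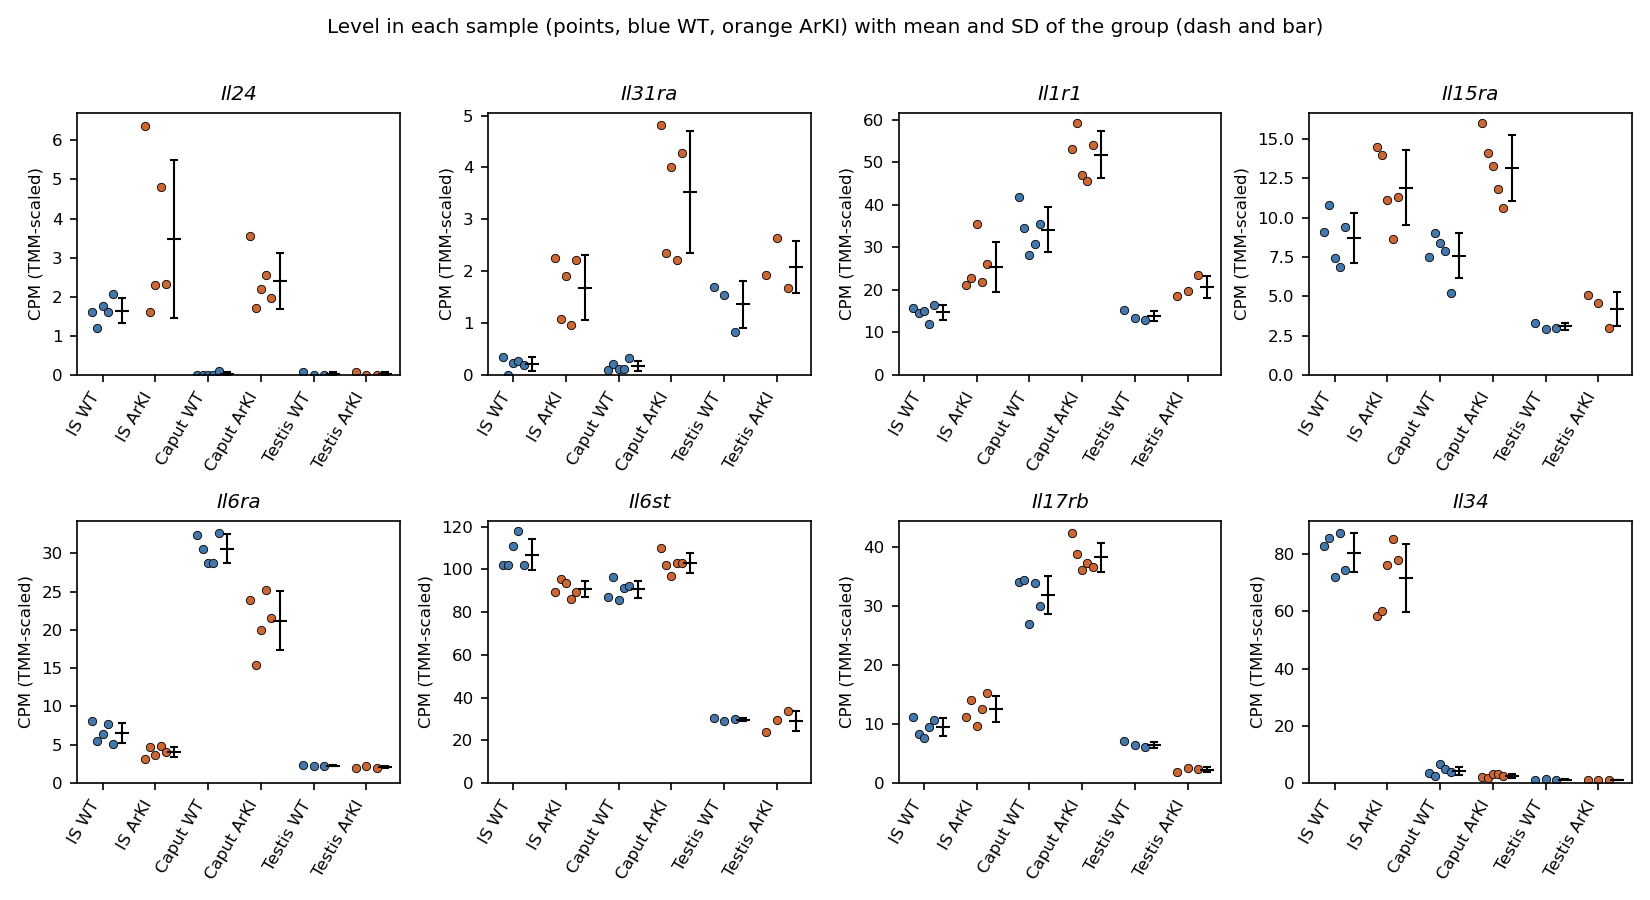
CPM of the members named most in the text in each sample, with 1 panel per gene, blue points for WT and orange for ArKI samples, and a dash and bar for each group's mean and SD. *Il24* and *Il31ra* rise from at most 3 counts in every WT caput sample to 1.71 CPM or more in every ArKI caput sample, and *Il17rb* is higher in ArKI than in WT in the caput and lower in the testis.

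Markers of other cells also moved in the caput. Genes of dendritic cells and MHC class II summed to 134 to 174 CPM in WT and 235 to 394 in ArKI, with 4 of 6 tested higher and none lower. The 4 were the MHC class II genes *H2-Aa*, *H2-Ab1*, *H2-Eb1* and *Cd74*. The dendritic markers *Itgax* (edgeR adjusted p = 0.09) and *Zbtb46* (0.51) did not pass. Germ cell markers summed to 110 to 183 CPM in WT and 6.07 to 26.8 in ArKI, with 5 of 5 tested lower. Of 11 macrophage markers none passed the test (summed 167 to 214 CPM in WT, 204 to 297 in ArKI), nor did any of the tested T cell (1), NK cell list (2), neutrophil (1), basal epithelial (4), smooth muscle (5) or blood (1) markers. Of the rest, 2 of 5 endothelial and 1 of 5 fibroblast markers were higher, the 1 mast cell marker tested was lower, 1 of 7 epididymal epithelial markers was higher and 1 lower, and of 4 Sertoli and Leydig cell markers 1 was higher and 2 lower. No B cell marker was high enough to test. Their part in the interleukin results was not tested.

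In the IS 10 of 34 tested members changed in ArKI, close to the 29.6% of all genes tested that did, 5 higher (15% of all genes) and 5 lower (14.6%). With library size only in place of TMM factors the split was 5 higher and 3 lower. The median log2 fold change was 0.082 over the members and −0.000044 over all genes. With the limits the study used none of the 34 remained, against 4.04% of all genes. The genotypes did not overlap for 4 of the 34, against 20% of all genes.

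Among the members that passed the filter, *Il1r1* had the smallest adjusted p in the IS. It was 15.8, 14.5, 15.1, 11.9 and 16.5 CPM in WT and 21.2, 22.7, 35.4, 21.8 and 26.1 in ArKI (log2 fold change 0.78 ± 0.14 SE, edgeR adjusted p = 0.00047), and ArKI replicate 3 stood above the rest. The accessory chain *Il1rap* had a log2 fold change of 0.23 (edgeR adjusted p = 0.23) and *Il1a* one of −0.41 (edgeR adjusted p = 0.42). The other ligand, *Il1b*, had 9, 6, 9, 10 and 2 counts in WT and 1, 2, 5, 3 and 2 in ArKI and was not tested. The antagonist *Il1rn* had at most 3 counts in any IS sample.

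Both chains of the IL-6 receptor fell in the IS. *Il6ra* was 8.15, 5.42, 6.36, 7.65 and 5.10 CPM in WT and 3.13, 4.67, 3.66, 4.81 and 3.99 in ArKI (log2 fold change −0.68 ± 0.18 SE, edgeR adjusted p = 0.0069). *Il6st* was 102, 102, 111, 118 and 102 CPM in WT and 89.6, 95.6, 93.5, 86.4 and 89.4 in ArKI (−0.23 ± 0.051, edgeR adjusted p = 0.0021). Neither gene overlapped between genotypes.

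*Il4ra*, at 259, 254, 255, 258 and 243 CPM in WT and 218, 206, 216, 228 and 227 in ArKI, fell without overlap (log2 fold change −0.21 ± 0.042 SE, edgeR adjusted p = 0.00089). In the caput it was 83.6 ± 6.68 CPM in WT and 74.4 ± 8.66 in ArKI (edgeR adjusted p = 0.085). Its partner *Il13ra1* had a log2 fold change of 0.10 in the IS (edgeR adjusted p = 0.27) and its partner *Il2rg* one of −0.13 (edgeR adjusted p = 0.76). The ligand *Il4* had at most 1 count in any sample, and *Il13* had 10 to 20 counts in the testis and none in the epididymis.

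*Il24* and *Il22ra1* rose in the IS with overlapping samples. *Il24* was 1.61, 1.19, 1.77, 1.61 and 2.06 CPM in WT and 6.38, 1.60, 2.30, 4.81 and 2.33 in ArKI, with ArKI replicates 1 and 4 far above the other 3 (log2 fold change 1.06 ± 0.34 SE, edgeR adjusted p = 0.029). *Il22ra1*, which forms the IL-22 receptor with Il10rb, was 1.49, 1.63, 1.65, 1.21 and 2.36 CPM in WT and 2.38, 2.13, 4.33, 3.36 and 3.44 in ArKI (0.88 ± 0.25, edgeR adjusted p = 0.011). *Il10rb* had a log2 fold change of −0.05 (edgeR adjusted p = 0.4) and *Il20rb* one of 0.48 (edgeR adjusted p = 0.097). A call for *Il20rb* was gained with DESeq2, limma, no robust shrinkage, the replicate block and the fit of all 4 epididymal groups. *Il22* had at most 2 counts in any sample.

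*Il31ra* had 3, 0, 2, 2 and 2 counts in the WT IS and 18, 8, 14, 6 and 20 in the ArKI IS, all above WT. The scaled sums were in a ratio of 8.47 (exact 95% interval 4.20 to 19.3). The gene fell below the filter on low counts, and without a filter it was called (edgeR adjusted p = 1.4e-05). Its partner *Osmr* was 32.6 ± 2.57 CPM in WT and 44.9 ± 4.76 in ArKI (log2 fold change 0.46 ± 0.077 SE, edgeR adjusted p = 0.00013).

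*Il15ra* rose from 8.72 ± 1.61 to 11.9 ± 2.39 CPM (log2 fold change 0.45 ± 0.15 SE, edgeR adjusted p = 0.025) and *Il17rb* from 9.4 ± 1.54 to 12.5 ± 2.28 CPM (0.42 ± 0.14, edgeR adjusted p = 0.028). *Il17rd* fell from 6.86 ± 0.858 to 4.86 ± 1.26 CPM (−0.50 ± 0.17, edgeR adjusted p = 0.035) and *Il17ra* from 21.8 ± 1.31 to 18.1 ± 2.67 CPM (−0.26 ± 0.096, edgeR adjusted p = 0.045). The genotypes overlapped in all 4 genes. *Il34* was 80.5 ± 6.85 CPM in WT and 71.8 ± 11.8 in ArKI (edgeR adjusted p = 0.29), while its receptor gene *Csf1r* was 61.1 ± 6.59 in WT and 41.8 ± 6.08 in ArKI.

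Leaving out a single library ended 5 of the 10 calls in the IS. *Il24* lost its call (adjusted p 0.053 to 0.098) without ArKI 1 or 4 or WT 1, 2, 3 or 4, *Il15ra* (0.063 to 0.081) without ArKI 1 or 2 or WT 3 or 4, and *Il17rb* (0.062 to 0.097) without ArKI 2 or 5 or WT 2 or 3. *Il17rd* (0.054 to 0.094) lost it without ArKI 1, 2 or 5 or WT 2, 3, 4 or 5, and *Il17ra* (0.054 to 0.12) without any library but ArKI 3. The count of changed members was 5 without WT 3 and 6 without ArKI 1, ArKI 2 or WT 4.

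Markers of other cells moved in the IS as well. MHC class II and dendritic genes summed to 175 to 260 CPM in WT and 318 to 588 in ArKI (5 of 7 higher, 1 lower). The 5 were *H2-Aa*, *H2-Ab1*, *H2-Eb1*, *Cd74* and *Ciita*, and the 1 lower was the dendritic marker *Itgax*. Smooth muscle markers (513 to 597 against 224 to 399 CPM) and endothelial markers were lower in 5 of 5 each. So were 3 of 4 basal epithelial, 3 of 7 epididymal epithelial and the 1 germ cell marker tested. Of 11 macrophage markers 4 were lower and none higher (281 to 371 against 239 to 316 CPM), and of 5 fibroblast markers 3 were higher and 1 lower. The 1 gene of the NK cell list tested, *Klrb1c*, was 993 ± 57.5 CPM in WT and 817 ± 57.5 in ArKI and lower by the test, whereas the other 5 NK cell genes together summed to 0.981 to 3.47 CPM in the IS. No T cell (3 tested), mast cell (1) or neutrophil (1) marker passed the test and the 1 blood marker was higher. Of 4 Sertoli and Leydig cell markers 2 were higher and 1 lower, no B cell marker reached the filter, and the neutrophil genes *Mpo*, *Elane* and *Cxcr2* had no count in any IS sample. Their part in the interleukin results was not tested.

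**Figure D4:**
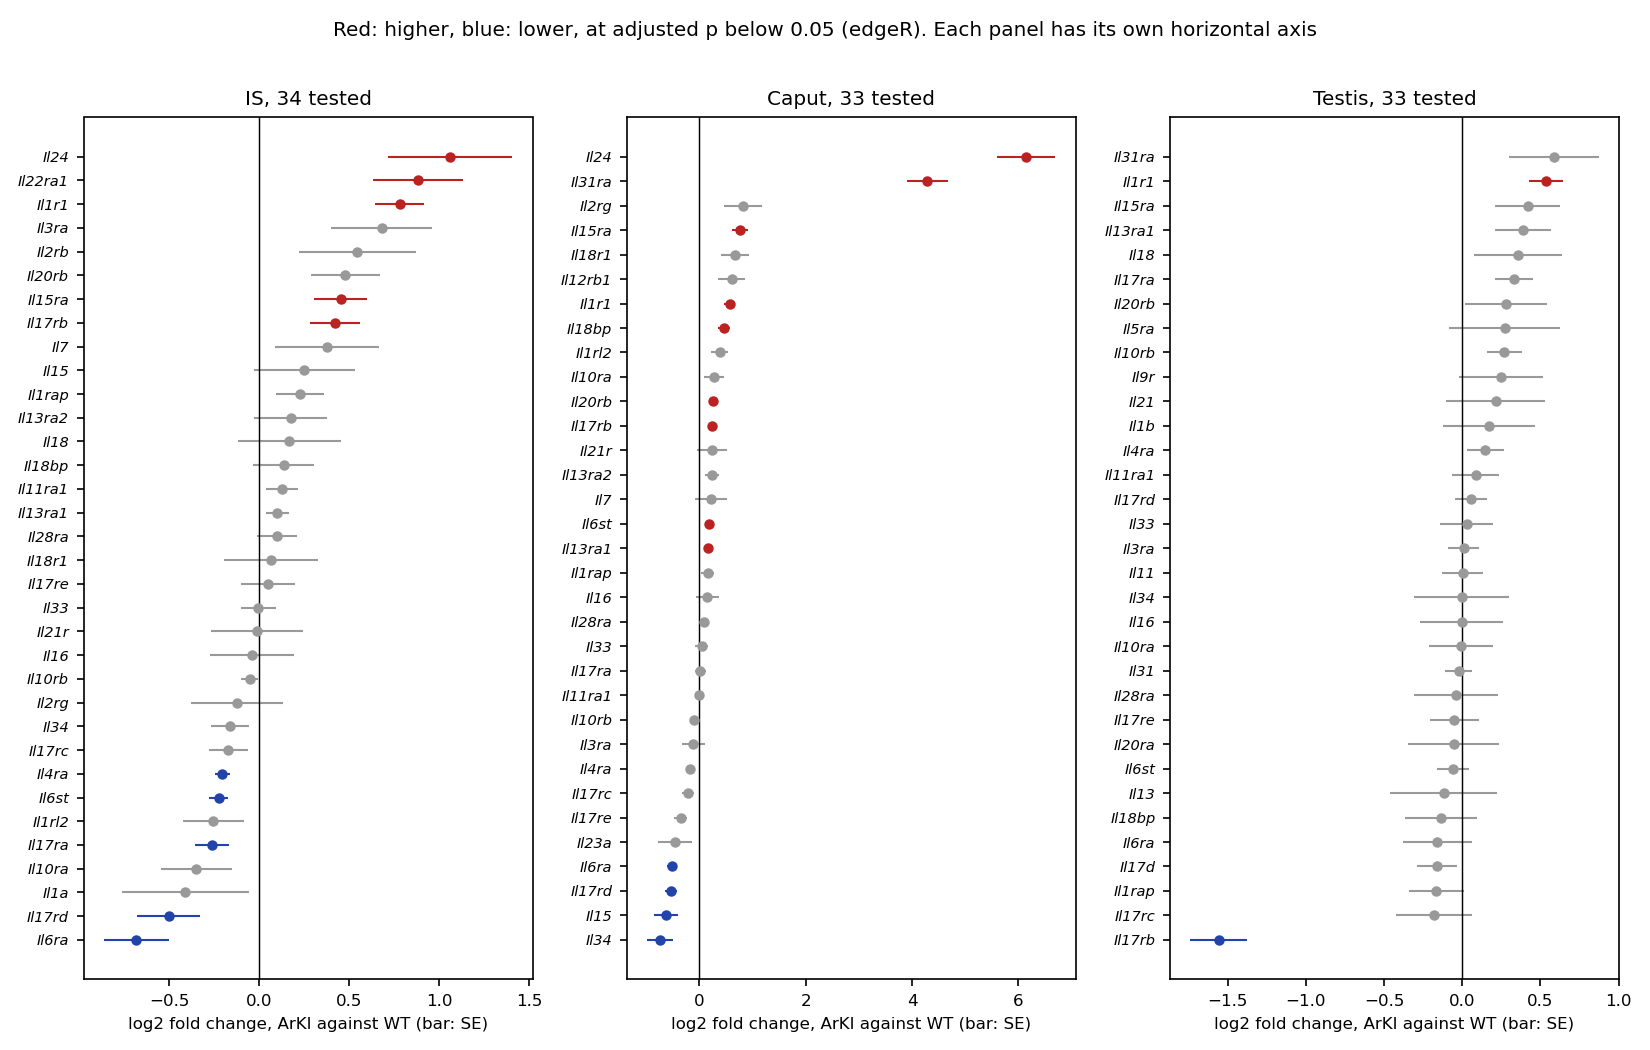
Log2 fold change of ArKI against WT for each tested member in the IS, caput and testis, each panel on its own axis, with bars of 1 SE, red and blue points for higher and lower at an adjusted p below 0.05 and grey points for the rest. *Il24* (6.14) and *Il31ra* (4.28) in the caput lie far to the right, as fitted values that depend on WT groups with at most 3 counts a sample, *Il6st* is −0.23 in the IS and 0.17 in the caput, and *Il17rb* is −1.56 in the testis.

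Of the changed members 7 were changed in both segments, 70% of those in the IS and 53.8% of those in the caput. Over all genes 41% of those changed in the IS were changed in the caput and 42.8% of those in the caput in the IS, 85% of them in the same direction. *Il1r1*, *Il15ra*, *Il17rb* and *Il24* were higher and *Il6ra* and *Il17rd* lower in both, and *Il6st* was lower in the IS and higher in the caput. The difference between the genotype effects of the segments, tested over all 20 epididymal samples, passed for 3 of 37 members, against 15.1% of all genes tested, and 1 of them, *Il24*, also passed a false discovery rate of 0.01 with a 2-fold limit, against 3.1%. It was 0.40 ± 0.069 for *Il6st* (log2, caput minus IS, edgeR adjusted p = 0.0002), 5.03 ± 0.85 for *Il24* (edgeR adjusted p = 0.00015) and −1.67 ± 0.55 for *Il22ra1* (edgeR adjusted p = 0.04). The call for *Il22ra1* was lost without any of 12 of the 20 libraries (adjusted p 0.055 to 0.077), namely IS ArKI 3, 4 or 5, IS WT 1, 2, 3 or 4, caput WT 2, 3 or 4 and caput ArKI 4 or 5. For *Il31ra* the difference was 1.28 (edgeR adjusted p = 0.31). *Il20* fell below the filter here too. Without a filter its fitted difference was 5.85 (edgeR adjusted p = 0.0011), with no count in the WT caput.

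In the testis 2 of 33 tested members changed, where 1.96% of all genes did, 1 lower (0.328% of all genes) and 1 higher (1.64%). The median log2 fold change was 0.0085 over the members and −0.0023 over all genes. *Il17rb* had 100, 74 and 72 counts in WT, or 7.05, 6.37 and 6.03 CPM, and 24, 44 and 34 counts in ArKI, or 1.79, 2.53 and 2.36 CPM. All ArKI samples lay far below all WT samples (log2 fold change −1.56 ± 0.18 SE, edgeR adjusted p = 9.1e-06). It was the 1 member past the limits the study used, against 0.833% of all genes.

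The fall of *Il17rb* in the testis stood against the higher values in both epididymal segments. The genotype effect in the testis minus the mean effect in the IS and caput was −1.86 ± 0.21 (log2, edgeR adjusted p = 1.2e-07), a test added after the direction had been seen, in which 6 of 44 members passed against 12.6% of all genes tested. Its ligands *Il25* and *Il17b* stayed at or below 3 counts in the testis. The promoter of *Il17rb* (GRCm38.p6, chr14:30008847-30009146, minus strand) is printed as that of the member with the clearest change in the testis:
Il17rb: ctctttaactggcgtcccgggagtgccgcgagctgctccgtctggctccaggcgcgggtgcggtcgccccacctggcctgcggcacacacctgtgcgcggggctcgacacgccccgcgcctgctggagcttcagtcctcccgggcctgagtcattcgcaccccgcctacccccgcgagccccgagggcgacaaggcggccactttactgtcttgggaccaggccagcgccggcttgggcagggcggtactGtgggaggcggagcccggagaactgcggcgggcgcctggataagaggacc

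The start of *Chdh*, which encodes choline dehydrogenase, lies 0.005 kb away and points in the opposite direction. *Chdh* had a log2 fold change of −0.29 in the testis (edgeR adjusted p = 0.037), 0.67 in the IS (edgeR adjusted p = 0.00051) and 0.04 in the caput (edgeR adjusted p = 0.79). On the other side, on the opposite strand, *Actr8* overlaps 6.72% of the exon length of *Il17rb* in GENCODE vM21 but ends 0.716 kb short of it in RefSeq, and it had a log2 fold change of 0.04 in the testis (edgeR adjusted p = 0.87).

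*Il1r1* was 15.2, 13.5 and 13.0 CPM in the WT testis and 18.6, 19.7 and 23.5 in the ArKI testis, with no overlap (log2 fold change 0.54 ± 0.11 SE, edgeR adjusted p = 0.0079). The call was lost without WT 3 or ArKI 3 (adjusted p 0.058 to 0.075). *Il1r1* and *Il17rb* were the 2 members changed in all 3 tissues, of 22 tested in all 3, where 0.67% of all genes tested in all 3 were, and *Il1r1* was higher in each.

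*Il31*, the highest member of the testis, was 33.2, 39.4 and 34.6 CPM in WT and 37.6, 34.8 and 35.0 in ArKI, with overlapping samples (log2 fold change −0.02 ± 0.086 SE, edgeR adjusted p = 0.94). *Il3ra* (edgeR adjusted p = 0.98), *Il11* (1.0) and *Il17d* (0.64), the other leading members of the testis, did not pass either. *Il31ra* had 24, 18 and 10 counts in the WT testis and 26, 46 and 24 in the ArKI testis (0.59, edgeR adjusted p = 0.39). The genotypes did not overlap for 5 of the 33 tested members, against 17.8% of all genes.

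Among cell markers in the testis, 1 of 10 macrophage, 1 of 6 MHC class II and dendritic, 1 of 5 smooth muscle, 2 of 5 fibroblast and 1 of 9 Sertoli and Leydig cell markers were higher, and the 1 mast cell marker and 1 of 6 epididymal epithelial markers were lower. None of 7 germ cell, 6 T cell, 3 B cell, 1 NK cell, 2 neutrophil, 5 endothelial, 2 basal epithelial or 1 blood markers passed the test. Their part in the change of *Il17rb* and *Il1r1* was not tested.

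Genes of the interleukin pathway outside the family, taken as a list of 50 partner receptors, kinases, STATs, feedback inhibitors and adaptors of which 49 were in the tables, were called in the epididymis in both directions. In the IS 8 were higher and 7 lower of 45 tested (median log2 fold change −0.051), against 29.6% of all genes called, and in the caput 10 were higher and 6 lower of 45 (0.022), against 27.7% called, 13.7% higher and 14% lower. In the testis none of 43 was called by edgeR (0.028), against 1.96%, and 3 had an unadjusted p below 0.05. *Stat4*, which carries signals of IL-12, rose from 1.77 to 7.45 CPM in the IS (log2 fold change 2.10 ± 0.23 SE, edgeR adjusted p = 7.3e-07) and fell from 3.18 to 1.21 CPM in the caput (−1.39 ± 0.30, edgeR adjusted p = 0.0018). It was 688 CPM in the WT testis.

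Relatives of the gp130 receptors were among those that rose. *Cntfr*, the ciliary neurotrophic factor receptor, was 12.2 CPM in WT and 24.5 in ArKI in the IS (log2 fold change 1.00 ± 0.12 SE, edgeR adjusted p = 7.2e-06) and 4.03 and 10.2 CPM in the caput (1.35 ± 0.14, edgeR adjusted p = 1.1e-06). *Lif*, a ligand of the Lifr and gp130 receptor, rose in the caput from 1.01 to 2.05 CPM (0.99, edgeR adjusted p = 0.014), and *Socs3*, a feedback inhibitor of gp130 signalling, from 1.51 to 3.38 CPM (1.05, edgeR adjusted p = 0.016). *Stat3*, which these receptors use, was lower in both segments, with log2 fold changes of −0.21 in the IS (edgeR adjusted p = 0.00091) and −0.23 in the caput (edgeR adjusted p = 0.0019), and *Jak1* was lower in the IS (−0.18, edgeR adjusted p = 0.0024).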

How the data were processed

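RNA-seq libraries were aligned to mm10 and reads were counted per gene by the authors, with Subread 1.5.1 named in the submitters' processing notes. The deposited values are raw counts per gene for 23337 genes in 26 samples, in 1 table for the epididymis and 1 for the testis. The labels and the study name different kits, unstranded and stranded, so reads of overlapping antisense genes cannot be told apart. Counts were tested as deposited with edgeR 4.0.16 (robust quasi-likelihood, filterByExpr with a minimum of 10 and a total of 15 counts, TMM, Benjamini-Hochberg over all genes tested, two-sided) within each tissue. A gene was called changed at an adjusted p below 0.05, with no fold limit. The study's own test was not installed. SE is the log2 fold change divided by the root of F. CPM were TMM-scaled over all 26 samples, and overlap of groups was judged on the scaling of each comparison's own samples. Named genes were all members changed in any tissue or in the test of the difference between segments, the 5 highest per kb in each WT tissue, and their partners. *Il18r1*, *Il10ra*, *Il17re*, *Il33*, the neighbouring genes and the genes of the pathway and cell marker lists were named after their values were seen. The members and lists were chosen with earlier results of these data known. Alternatives were DESeq2 1.42.0, limma 3.58.1 on voom values, other scalings and filters, the study's thresholds, a replicate block and leaving out each sample. Replicate numbers were not taken as pairs. Exon lengths came from GENCODE vM21 and promoters from RefSeq (GRCm38.p6), to which 85 members matched, 3 under newer symbols. The level of the mutated gene is not reported here.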

Additional observations from a re-analysis of the deposited data

Results flagged for a closer look

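In 61 groups of 5 samples examined for the changed members, 2 values stood apart from their group by Dixon's test, which flags about 5% of groups by chance. *Il20rb* was lowest in caput WT replicate 1, at 49.2 CPM against 54.2 to 56.1 in the other 4. *Il4ra* was lowest in caput ArKI replicate 2, the shallowest library, at 59.6 CPM against 75.7 to 81.7.

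The genotype effect differed between the segments (log2, caput minus IS) by 5.03 for *Il24* (edgeR adjusted p = 0.00015), 0.40 for *Il6st* (0.0002) and −1.67 for *Il22ra1* (0.04). Between the testis and the mean of both segments, in a test added after the data had been seen, it differed by −1.86 for *Il17rb* (edgeR adjusted p = 1.2e-07) and −3.04 for *Il31ra* (5.2e-05), and by 0.60 for *Il17rd* (0.008), 0.48 for *Il17ra* (0.025), 0.37 for *Il10rb* (0.033) and 0.36 for *Il4ra* (0.038). In the testis alone the log2 fold changes of *Il17ra* (0.33, edgeR adjusted p = 0.21) and *Il10rb* (0.27, 0.29) missed the threshold, both with every ArKI sample above every WT sample. In this second set the tissues also differ in sequencing run.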

How the results depend on the processing

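No direction of a member changed in a tissue turned in any fit that tested it, over 35 settings with the samples left out included. With the study's thresholds 0 members remained in the IS, 2 in the caput and 1 in the testis, 12 differed between IS and caput in WT and 1 in the difference between segments. With at least 10 counts in every sample 21 differed between testis and epididymis, where fewer genes are tested. Leaving out 1 library gave 5 to 11 changed members in the IS, 9 to 14 in the caput, 1 to 2 in the testis (1 without WT 3 or ArKI 3), 21 to 25 between IS and caput, 35 to 37 between testis and epididymis and 2 to 4 in the difference between segments. Other settings ended the calls of *Il24* (limma), *Il17rd* (library size only) and *Il17ra* (library size only, DESeq2, no robust shrinkage) in the IS and of *Il13ra1* (DESeq2), *Il15* (library size only, no robust shrinkage), *Il34* (limma), *Il17rb* and *Il20rb* (all 4 epididymal groups in one fit) in the caput. With at least 10 counts in every sample *Il22ra1* in the IS and *Il24*, *Il31ra* and *Il34* in the caput were not tested. Calls gained in the IS were *Il20rb* (DESeq2, limma, no robust shrinkage, replicate block, all 4 groups), *Il3ra* (replicate block) and *Il31ra* (no filter, all 4 groups). Those gained in the caput were *Il17re* (no filter, limma, all 4 groups), *Il20* (no filter) and *Il4ra* (all 4 groups). With all 4 epididymal groups in one fit 13 members were called in the caput, 7 higher and 6 lower, of which 11 were among the 13 called with the caput alone. The replicate block gave 12 changed members in the IS, 13 in the caput, 2 in the testis, 26 between IS and caput and 3 in the difference between segments. Samples sharing a number correlated best with each other in 4 of 13 cases between genotypes and in 5 of 10 between IS and caput of the same genotype (r from −0.0863 to 0.183). Not every r exceeded 0.1, and these correlations cannot decide whether equal numbers mark the same mouse. The labels do not tie numbers to mice, so the numbers were not taken as pairs, although the segments share animals. A block was not run for testis against epididymis. The study's own test, ROTS, was not run. Depth limits the members at a few counts, such as *Il24*, *Il20* and *Il31ra*, whose WT caput levels rest on 0 to 3 counts a sample and whose folds have wide intervals.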
